A study of Mus musculus with 8 samples.

Results

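The genes of alternatively activated (M2) macrophages were followed over 4 treatment groups of CT26 tumors. The members were the non-control probes named for *Retnla*, *Retnlg*, *Chil3*, *Chil4*, *Mrc1*, *Mgl2*, *Clec10a*, *Cd163* and *Il4ra*, which gave 9 genes of 37058 gene names and 13 probes of 56567 probes on the arrays. *Retnla* was included for its large rise on these arrays, so its values were selected on and are given as a description with no test, and counts of called members are over the other 8 genes. Tumors of CT26, a mouse colorectal cancer line of BALB/c origin, were grown under the skin of female BALB/c mice, whose age the methods give only as a range over all strains used, from 500000 implanted cells, and treatment began at a volume of 100 to 200 mm3. The 4 groups received vehicle, TP-16 (also named BY001, an antagonist of the prostaglandin E2 receptor EP4) orally at a daily dose of 75 mg/kg, an antibody against PD-1 at 50 µg per mouse into the peritoneum with 2 doses a week, or both agents, each for 2 weeks. All animals carried the same tumor line, and none is described with an altered allele. Total tumor RNA of 2 samples per group was hybridised to 8 one-colour arrays. The sources do not say whether a sample was 1 tumor or a pool, so p-values measure only the spread between these samples.

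Macrophages exposed to IL-4 or IL-13 take on a program called alternative activation. The cytokines bind receptors that contain the IL-4 receptor alpha chain, Jak kinases at the receptor phosphorylate STAT6, and STAT6 turns on genes for secreted resistin-like and chitinase-like proteins and lectins that bind sugars. In tumors such macrophages are known for wound repair functions and for restraint of T cells.

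Each value is a log2 intensity from which that of the array's 75th percentile was subtracted, so 0 is the intensity that 75 percent of the probes of that array stay below, and a difference of 1 is a fold of 2. Intensity does not rank genes by abundance, so the brightest gene of a list is only that of the highest signal. A probe entered the tests if some group had it well above background on each of its 2 arrays. This left 31912 probes, and 12 of the 13 probes and 8 of the 9 genes passed, *Chil4* being the exception. Under this scaling the median log2 fold change over all tested probes was -0.20 in the combination against vehicle, -0.12 in TP-16 and -0.10 in anti-PD-1. Quantile normalization moved these medians to -0.01, 0.04 and -0.01, so a change is read relative to them. All 8 arrays shared 1 slide and 1 scan. The antibody cannot be told apart from the row on the slide, and TP-16 cannot be told apart from the column.

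*Clec10a* rose with the combination, and no other of the 7 tested members passed both a fold of 2 and an adjusted p of 0.05 in any comparison. For the combination against vehicle 1 of the 8 members was called at adjusted p, as higher, while 12.5% of all tested probes were called, 5.08% as higher and 7.47% as lower. Only 7 of the 8 could be called in any comparison, because *Chil4* was not tested, and counts use 1 probe per gene. At unadjusted p the count was also 1 of 8, beside 15.3% of all probes. For TP-16 against vehicle 0 of 8 members were called at adjusted p (limma, 0.0533% of all probes) and 0 at unadjusted p (6.18% of all probes). For anti-PD-1 against vehicle 0 were called at adjusted p (limma, 0.0721% of all probes) and 1, *Clec10a*, at unadjusted p (3.83% of all probes). With so few members, nothing particular to the list is read from these counts. The median log2 fold change of the 7 genes, without *Retnla*, was 0.12 in TP-16, 0.45 in anti-PD-1 and 0.69 in the combination. For TP-16 it was -0.08 without vehicle replicate 1 and -0.28 without TP-16 replicate 2. With *Retnla*, chosen for its rise, the medians were 0.23, 0.60 and 0.76. The 3 comparisons share the vehicle arrays. Groups without overlap were common: both treated arrays lay above both vehicle arrays for 23.3% of tested probes with the combination. This share was 17.7% with TP-16 and 15% with anti-PD-1. With the combination, 15134 of the 31912 probes lay below both vehicle arrays. Where arrays of single genes are said below to lie apart, this is a description and not a result.

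The call of *Clec10a* with the combination was lost without combination replicate 2, where its log2 fold change was 1.68 (adjusted p = 0.0754 by limma) and it passed at unadjusted p. In that fit 0 of all tested probes were called at adjusted p, so the loss is not particular to the gene, and both combination arrays lay above both vehicle arrays. Every adjusted-p call of a gene named below for the combination was also lost there and with the compared groups alone, and where other settings ended a call as well, the number of alternatives that kept it is given for genes with a fold change. Without vehicle replicate 2, *Il4ra* and *Retnlg* were called beside *Clec10a*, which made 3 members. The anti-PD-1 call at unadjusted p also moved: 0 members were called without vehicle replicate 1, *Retnlg* alone without vehicle replicate 2, and *Chil3* alone without anti-PD-1 replicate 1. In TP-16 against vehicle, *Clec10a* was called at unadjusted p when TP-16 replicate 2 was left out.

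**Figure D1:**
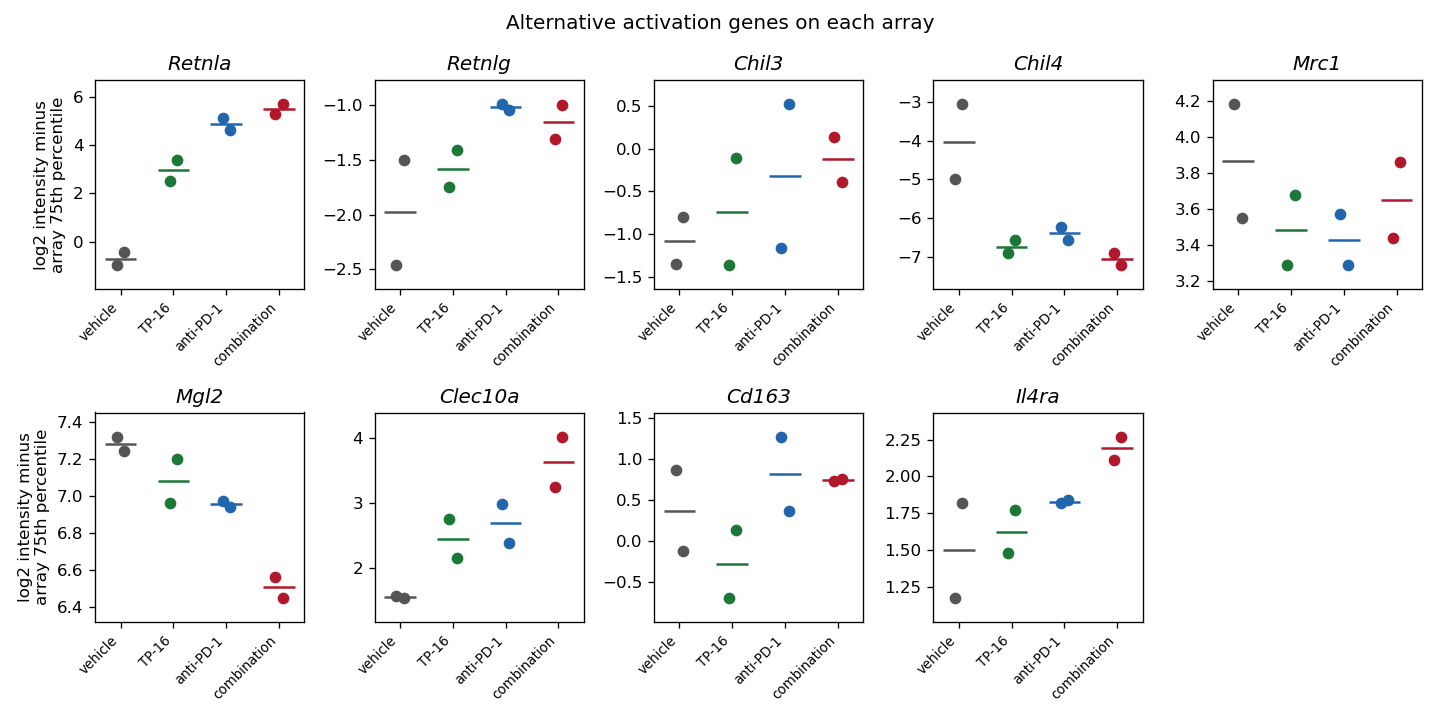
The vertical axis is log2 intensity after subtraction of the 75th percentile, for each of the 9 genes, 1 probe per gene. Points are single arrays, 2 per group, lines are group means, and each panel has its own vertical scale: *Retnla* spans -0.96 to 5.69, and *Chil4* was well above background on 1 array.

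Of the 2 cytokines that start the program, *Il4* was well above background on 1 of 8 arrays and was not tested. *Il13* was well above background on 6 arrays, and its log2 fold change with the combination was -0.92 ± 0.63 (SE, adjusted p = 0.297 by limma). With 1 of 2 vehicle arrays well above background, this was -1.64 without vehicle replicate 1 and -0.20 without vehicle replicate 2, so no direction is given. Of the cytokines that act upstream in type 2 responses, *Il33* was measured on all 8 arrays with a log2 fold change of 0.52 at its brightest probe and another sign at a dimmer one, *Tslp* was well above background on 2 arrays, and *Il25* on 0.

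*Il4ra* encodes the chain shared by the IL-4 and IL-13 receptors. Its level was 1.18 and 1.82 with vehicle, 1.48 and 1.77 with TP-16, 1.82 and 1.84 with anti-PD-1, and 2.11 and 2.27 with the combination. Both combination arrays lay above the arrays of the other 3 groups, whereas the TP-16 arrays lay within the vehicle range. The log2 fold change with the combination was 0.69 ± 0.23 (SE, n = 2 per group, adjusted p = 0.0676 by limma), which did not pass. It ran from 0.37 to 1.01 when single arrays were left out. A second probe of the gene read -3.33 and -0.33 on the vehicle arrays and gave 0.14 ± 1.01, so it measured the gene with little precision.

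Of the receptor partners, the common gamma chain *Il2rg* rose with the combination. It read 3.12 and 3.59 with vehicle and 4.53 and 4.89 with the combination, a log2 fold change of 1.35 ± 0.20 (SE, adjusted p = 0.0109 by limma). *Il13ra1*, which pairs with the IL-4 receptor alpha chain, read 1.53 and 1.72 with vehicle, 2.15 and 2.21 with TP-16, 2.42 and 2.61 with anti-PD-1, and 2.43 and 2.58 with the combination. All 6 treated arrays lay above both vehicle arrays, and the change of 0.88 with the combination stayed under a fold of 2. The decoy receptor *Il13ra2* had a change of -0.61.

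The kinases and the transcription factor of the pathway differed by less than a fold of 2. Log2 fold changes with the combination were 0.65 for *Jak1*, 0.59 for *Jak2*, 0.57 for *Jak3* and 0.85 for *Tyk2*, though other probes of *Jak3* and *Tyk2* gave -0.80 and -0.79. *Stat6* read 2.31 and 2.33 with vehicle and 2.58 and 2.57 with the combination, a change of 0.25 ± 0.11 (SE, adjusted p = 0.123 by limma). Of the 13 pathway genes tested, 3 rose with the combination and 0 fell at adjusted p, namely *Il2rg* and the inhibitors *Socs1* (1.11) and *Ptpn6* (1.20). The call of *Ptpn6* was kept in 6 of 17 alternatives, and its other probes gave 1.42, 0.48 and 0.98. Without vehicle replicate 1 *Ptpn6* was 0.74 and *Socs1*, kept in 13 of 17, was 0.82. The list had a median change of 0.59. In that comparison 5.08% of all tested probes were called higher and 7.47% lower. No count of a gene list, here or below, was tested against these shares. The list had 0 calls with either single agent at the same threshold, and 0 at unadjusted p by limma.

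*Retnla* encodes resistin-like alpha (FIZZ1), a secreted protein of alternatively activated macrophages. It read -0.96 and -0.44 with vehicle, 2.53 and 3.38 with TP-16, 5.11 and 4.64 with anti-PD-1, and 5.30 and 5.69 with the combination. The groups did not overlap, with vehicle lowest, then TP-16, then anti-PD-1, then the combination. The group mean was 12.6-fold of vehicle in TP-16, 47.7-fold in anti-PD-1 and 73-fold in the combination. The combination was 5.80-fold of TP-16 and 1.53-fold of anti-PD-1, and on the log2 scale it lay 3.04 below the sum of the single-agent changes. These values chose the gene. In bulk tumor RNA, fewer cells of a type and less RNA per cell cannot be told apart, so a higher level may be more such cells or more transcript in each.

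*Retnlg*, the neighbouring resistin-like gamma gene, read -2.46 and -1.50 with vehicle, -1.75 and -1.41 with TP-16, -0.99 and -1.04 with anti-PD-1, and -1.31 and -1.0 with the combination. The anti-PD-1 and combination arrays lay above both vehicle arrays, and the TP-16 arrays overlapped them. The log2 fold changes of 0.96 ± 0.33 with anti-PD-1 (SE, adjusted p = 0.31 by limma) and 0.83 ± 0.33 with the combination (adjusted p = 0.101 by limma) did not pass. When single arrays were left out, they ran from 0.48 to 1.45 with anti-PD-1 and from 0.34 to 1.31 with the combination. Over the other settings their lowest values were 0.61 and 0.42. The probes of both genes share no run of bases longer than 8 of 60. In the same families, *Retn* had a change of 0.33 with the combination and *Retnlb* was well above background on 1 array.

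The promoters of *Retnla* and *Retnlg* are shown because the genes are neighbours with very different changes, and the letters of a STAT6 motif occur in both. RefSeq windows of 300 bases (GRCm38.p6) were found for 8 of the 9 members, all but *Clec10a*. The STAT6 motif TTCNNNNGAA, searched on both strands, was found in these 2 of the 8 windows and in 6.95% of 32851 promoters. It starts at base 106 of the window chr16:48842359-48842658 and at base 179 of chr16:48872358-48872657, both on the plus strand, and is in capitals below.
Retnla: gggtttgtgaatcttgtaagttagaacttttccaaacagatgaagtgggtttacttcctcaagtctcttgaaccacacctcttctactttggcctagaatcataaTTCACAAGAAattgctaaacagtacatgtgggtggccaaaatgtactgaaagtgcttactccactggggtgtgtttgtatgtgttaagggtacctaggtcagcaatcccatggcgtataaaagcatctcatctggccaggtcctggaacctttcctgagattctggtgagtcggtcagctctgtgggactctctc
Retnlg: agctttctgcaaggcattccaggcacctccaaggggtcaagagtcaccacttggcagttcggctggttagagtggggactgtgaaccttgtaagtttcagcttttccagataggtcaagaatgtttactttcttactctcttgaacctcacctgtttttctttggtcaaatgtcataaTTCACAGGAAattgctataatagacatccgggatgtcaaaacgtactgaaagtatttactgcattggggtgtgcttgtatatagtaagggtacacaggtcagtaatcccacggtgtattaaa
Aligned over 225 bases, the 2 windows were 79.1% identical. A C/EBP motif, TTGCNNAA, starts 2 bases after the STAT6 match in *Retnla* (base 117), does not overlap it, and occurs in 10.8% of promoters. In *Retnlg* the C/EBP letters lie at base 5 on the minus strand. The short CREB motif TGACG (20.8% of promoters) and its palindrome TGACGTCA (1.79%) were in none of the 8 windows. A match is a description, not evidence of binding.

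*Chil3* encodes the chitinase-like protein Ym1, which is secreted by alternatively activated macrophages and is also made by monocytes. It read -1.35 and -0.80 with vehicle, -1.36 and -0.11 with TP-16, -1.16 and 0.52 with anti-PD-1, and 0.14 and -0.39 with the combination. Both combination arrays lay above both vehicle arrays, but arrays of each single-agent group were far apart. The change of 0.95 ± 0.66 with the combination (SE, adjusted p = 0.301 by limma) did not pass.

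*Chil4* (Ym2), its near copy, was not well above background on 7 of 8 arrays. Its intensity was measured on vehicle replicate 2 alone, at a log2 level of -3.06, and read -4.99 on vehicle replicate 1 and between -7.21 and -6.22 on the treated arrays. Of other chitinase-like genes, *Chil5* and *Chil6* were well above background on 1 array each, *Chia1* on 0 and *Chit1* on 8, and *Chit1* had a change of 0.20.

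The promoters of *Chil3* and *Chil4* are shown because the pair has nearly the same upstream sequence and only one of them was measured on all arrays. They lie at chr3:106167515-106167814 and chr3:106219430-106219729 on the minus strand (RefSeq, GRCm38.p6). Over 271 aligned bases they were 92.6% identical. Capitals mark the motif of other STAT factors, TTCNNNGAA, which occurs in 8.30% of promoters and starts at base 79 of the *Chil3* window and base 51 of the *Chil4* window.
Chil3: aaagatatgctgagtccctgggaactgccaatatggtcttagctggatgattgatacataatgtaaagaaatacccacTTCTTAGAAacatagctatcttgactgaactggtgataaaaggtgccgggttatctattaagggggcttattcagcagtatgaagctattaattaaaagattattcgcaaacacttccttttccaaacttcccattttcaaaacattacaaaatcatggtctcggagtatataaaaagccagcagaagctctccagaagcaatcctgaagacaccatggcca
Chil4: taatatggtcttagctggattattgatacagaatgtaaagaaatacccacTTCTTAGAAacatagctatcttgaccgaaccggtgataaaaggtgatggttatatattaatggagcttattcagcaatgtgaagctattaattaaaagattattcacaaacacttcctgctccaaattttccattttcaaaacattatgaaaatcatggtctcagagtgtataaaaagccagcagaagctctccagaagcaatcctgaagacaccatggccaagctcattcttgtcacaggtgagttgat
The C/EBP letters lie at base 120 of the *Chil4* window on the minus strand and are not in the *Chil3* window. Neither window held the STAT6 letters, which says only that they are not in these 300 bases.

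Of the 11 arginine and polyamine genes tested, 3 were called higher and 0 lower with the combination at adjusted p, with a median change of -0.07. The polyamine genes *Odc1* (-0.84), *Sms* (-0.73) and *Srm* (-0.45) were lower at an adjusted p under 0.05 and stayed under a fold of 2. They depended on the scaling, with -0.51, -0.50 and -0.18 under quantile normalization, and a second *Odc1* probe gave -0.39 (adjusted p = 0.0763 by limma). *Nos2*, the inducible nitric oxide synthase that makes nitric oxide from arginine, read 0.23 and 0.16 with vehicle, 1.34 and 1.05 with TP-16, 1.93 and 1.65 with anti-PD-1, and 2.80 and 3.28 with the combination. Its groups did not overlap, and its change of 2.85 ± 0.21 with the combination (SE, adjusted p = 0.0102 by limma) was past the threshold. *Ass1* (2.23), which rebuilds arginine from citrulline, rose as well. The third, the transporter *Slc7a2*, was not well above background with vehicle and entered the tests only through groups where it was brighter, so no fold is given. The summed level, with *Odc1* brightest, was 198 and 198 with vehicle, 184 and 193 with TP-16, 183 and 193 with anti-PD-1, and 162 and 158 with the combination.

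*Clec10a*, a galactose-type lectin of macrophages and dendritic cells, was the member called with the combination. It read 1.58 and 1.55 with vehicle, 2.75 and 2.15 with TP-16, 2.99 and 2.39 with anti-PD-1, and 3.24 and 4.02 with the combination. All 6 treated arrays lay above both vehicle arrays, and the combination arrays lay above the single-agent arrays. The log2 fold change with the combination was 2.07 ± 0.35 (SE, n = 2 per group, higher on 2 of 2 arrays, adjusted p = 0.0128 by limma), with adjusted p between 0.00331 and 0.177 over 17 alternatives, of which 14 kept the call. Changes of 0.89 ± 0.35 with TP-16 (adjusted p = 0.186 by limma) and 1.13 ± 0.35 with anti-PD-1 (adjusted p = 0.292 by limma) did not pass at adjusted p. A second, dim *Clec10a* probe was not well above background on either vehicle array and entered the tests only through brighter groups. It read -4.44 and -3.88 with vehicle, -3.57 and -4.32 with TP-16, -3.46 and -4.50 with anti-PD-1, where 1 of 2 arrays was well above background, and -3.22 and -2.03 with the combination. Its calls at unadjusted p, against vehicle and against anti-PD-1, used readings that were not above background, so no change is given.

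*Mgl2*, the paralog of *Clec10a*, had 2 probes that disagreed. The brighter one, printed on 10 spots, read 7.32 and 7.24 with vehicle, 6.96 and 7.20 with TP-16, 6.97 and 6.94 with anti-PD-1, and 6.56 and 6.45 with the combination. It was lower by less than a fold of 2 with the combination (-0.78 ± 0.12, SE, adjusted p = 0.0115 by limma), and only -0.19 under quantile normalization. With TP-16 its change of -0.20 became 0.13 under that scaling. The dimmer probe gave 0.76 ± 0.55 with the combination (adjusted p = 0.323 by limma), so no direction is given for the gene.

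*Mrc1*, the mannose receptor, showed no called change. It read 4.18 and 3.55 with vehicle, 3.29 and 3.68 with TP-16, 3.57 and 3.29 with anti-PD-1, and 3.44 and 3.86 with the combination. All 4 groups overlapped, and the change with the combination was -0.21 ± 0.28 (SE, adjusted p = 0.585 by limma).

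*Cd163*, the scavenger receptor for haptoglobin bound to hemoglobin, read 0.86 and -0.12 with vehicle, -0.69 and 0.13 with TP-16, 1.27 and 0.37 with anti-PD-1, and 0.73 and 0.75 with the combination. The combination arrays lay within the vehicle range and above both TP-16 arrays. Its change was 0.37 ± 0.47 with the combination (SE, adjusted p = 0.57 by limma) and 1.02 ± 0.47 for the combination against TP-16 (adjusted p = 0.264 by limma). A dim second probe, well above background on 1 of 2 vehicle arrays, gave 0.27 ± 0.33 with the combination, uncalled, and from -0.36 to 1.35 over the settings.

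**Figure D2:**
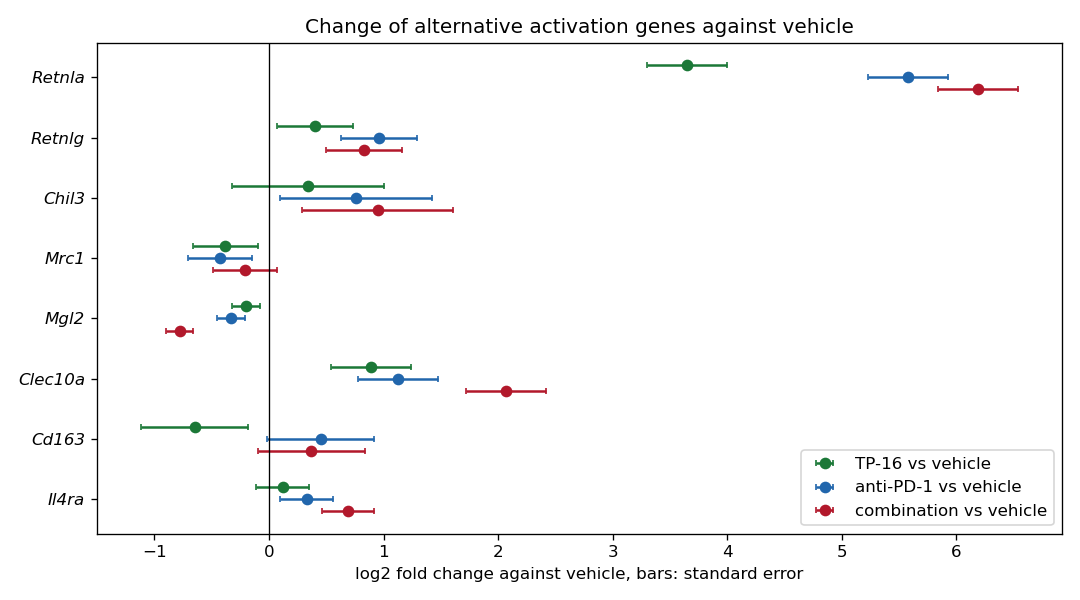
Log2 fold change against vehicle for the 8 genes tested, 1 probe per gene. Points are estimates for each of the 3 treated groups (n = 2 arrays per group), and bars are standard errors. *Retnla* lies at 3.65, 5.58 and 6.19, while *Mrc1* stays between -0.43 and -0.21, and the *Mgl2* point for TP-16 changes sign under quantile normalization.

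The combination was also set against each single agent. Against TP-16, 0 of 8 members were called at adjusted p (limma, 0% of all probes) and 1, *Clec10a*, at unadjusted p (4.34% of all probes). Without combination replicate 2 that unadjusted count was 0, and without TP-16 replicate 2 it held *Cd163* and not *Clec10a*. Against anti-PD-1, 0 were called at adjusted p (limma, 0.0157% of all probes) and 0 at unadjusted p (4.27% of all probes), where *Clec10a* was called without anti-PD-1 replicate 1 or without combination replicate 1. The departure from additivity, the combination minus both single agents plus vehicle, called 0 of 8 members at adjusted p (limma, 0% of all probes) and 0 at unadjusted p (3.20% of all probes), where *Retnlg* was called without vehicle replicate 2. For *Clec10a* it was 0.06 ± 0.50, an error wide enough to hold changes in either direction.

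Of 13 transcription factors tested that are tied to the program, 2 were called higher and 0 lower with the combination at adjusted p. Beside this, 5.08% of all tested probes were called higher, and with so few genes nothing particular to the list is read. The median change was 0.12, and 1 of the 2 called genes was not measured with vehicle. That gene, *Irf4*, which drives alternative activation downstream of IL-4, read -5.77 and -4.17 with vehicle, where it was not well above background, and -2.24 and -1.13 with the combination. It entered the tests only through treated groups, its change ran down to 1.04 over the settings, and a second probe gave 0.86 (adjusted p = 0.0957 by limma), so no size is given. *Pparg* (1.17), a nuclear receptor for fatty acids, rose, with its call kept in 9 of 17 alternatives, and *Ppargc1b* and *Kdm6b* had changes of 0.94 and 0.74, under a fold of 2, although a second *Ppargc1b* probe gave 1.18 and was past both thresholds (adjusted p = 0.034 by limma).

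Of 27 other target genes tested, 8 were called higher and 0 lower with the combination at adjusted p, with a median change of 0.49. Of these 8, *Il10* was not well above background with vehicle. *Timd4*, a receptor for phosphatidylserine, changed by 3.11 (2.24 without vehicle replicate 1 and 3.98 without vehicle replicate 2, kept in 12 of 17 alternatives), the eosinophil-type ribonuclease *Ear2* by 2.86, the PD-1 ligand *Pdcd1lg2* by 2.66 and the lipid receptor *Cd36* by 2.29. *Ear2* read -2.64 and -2.61 with vehicle, -0.77 and -0.05 with TP-16, -0.53 and -0.73 with anti-PD-1, and 0.12 and 0.35 with the combination. All 6 treated arrays of *Ear2* lay above both vehicle arrays.

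Genes of classical activation moved in the same tumors. Of 18 tested, 10 rose and 1, *Il6*, fell with the combination at adjusted p, with a median change of 1.57. *Ccl5*, a chemokine for T cells, changed by 4.05, the tryptophan-degrading enzyme *Ido1* by 4.01 and the interferon-induced chemokine *Cxcl9* by 3.18. *Ido1* read -3.63 and -0.19 with vehicle, and its call was kept in 8 of 17 alternatives and that of *Cxcl9* in 6. Leaving out vehicle replicate 1 gave 2.29 for *Ido1* and 1.58 for *Cxcl9*, and leaving out replicate 2 gave 5.73 and 4.79. *Cxcl9* read 0.89 on vehicle replicate 1 and 4.11 on vehicle replicate 2, and 5.68 on both combination arrays. Of the 6 related family genes tested, 1, *Cd163l1*, was called with the combination, and the median change was 0.15. It read -5.80 and -3.16 with vehicle, where 1 of 2 arrays was well above background, and -1.35 and -1.64 with the combination. Its change was 1.67 and uncalled without vehicle replicate 1, 4.31 without vehicle replicate 2 and 1.02 with normexp, and the call was kept in 5 of 16 alternatives, so no size is given. *Chil1* was well above background on 1 of 2 vehicle and 1 of 2 combination arrays, so no direction is given.

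Markers of the cells that could carry these genes moved as well, and their part in the result was not tested. Their counts stand beside 5.08% of all tested probes called higher and 7.47% called lower with the combination at adjusted p. All 16 macrophage markers were well above background on all arrays, and 7 rose and 0 fell with the combination at adjusted p, with a median change of 0.99, among them *Adgre1* (2.06), *Fcgr1* (1.37), *Siglec1* (1.27) and *Mertk* (1.22). The call was kept in 14 of 17 alternatives for *Adgre1*, 12 for *Mertk*, 7 for *Siglec1* and 4 for *Fcgr1*, which was 0.88 without vehicle replicate 1. Second probes gave 1.60 for *Adgre1* (adjusted p = 0.094 by limma) and 0.42 for *Siglec1* (adjusted p = 0.519 by limma), neither called. Other markers had negative changes under a fold of 2, with *Lyz2* at -0.56, *Cd14* at -0.51 and *Cx3cr1* at -0.50, but under quantile normalization *Lyz2* was 0.37 and *Cd14* -0.29. *Itgam* read 4.97 and 2.53 with vehicle and 3.41 and 2.62 with the combination, so its sign depended on vehicle replicate 1. *Adgre1* read 2.50 and 3.0 with vehicle, 3.90 and 3.33 with TP-16, 3.60 and 3.15 with anti-PD-1, and 4.40 and 5.22 with the combination. All 6 treated arrays lay above both vehicle arrays. The summed linear level of the list, in units of the 75th percentile, was 864 and 995 with vehicle, 833 and 800 with TP-16, 997 and 909 with anti-PD-1, and 999 and 1150 with the combination, with *Lyz2* the brightest. The sum was highest on combination replicate 2, and both combination arrays lay above both vehicle arrays.

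Monocyte markers included *Chil3* itself, and 2 of 8, *Ly6c1* (2.00) and *Ly6c2* (2.11), rose with the combination, with each call kept in 8 of 17 alternatives and changes of 1.14 and 1.22 with vehicle replicate 1 left out, against 2.87 and 2.99 with replicate 2 left out, while *Vcan* had a change of 0.91 at the brightest of probes that differ in sign, and the median was 0.91. The summed level was 276 and 409 with vehicle, 546 and 491 with TP-16, 665 and 633 with anti-PD-1, and 701 and 655 with the combination, with *Ly6c1* the brightest probe. Every treated array was above both vehicle arrays. The *Ly6c1* and *Ly6c2* probes read nearly alike on each array, with 4.97 and 4.85 on vehicle replicate 1 and 7.81 and 7.85 on combination replicate 2. Whether they are separate signals was not tested, and both enter the count and the sum.

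Dendritic cell markers, which matter for *Clec10a*, were called higher in 7 of 11 genes with the combination, of which *Clec9a* and *Zbtb46* were not well above background with vehicle, and the median change was 1.82. *Ciita* changed by 4.84, *Flt3* by 2.96, which was 1.62 with normexp, and *Batf3* by 1.94, with its call kept in 9 of 17 alternatives. Other *Ciita* probes gave 4.46 (adjusted p = 0.0189 by limma) and only 1.79 (adjusted p = 0.0251 by limma). *Ciita* read -2.45 and 0.41 with vehicle, and its call was kept in 13 of 17 alternatives. *Ciita* and *Batf3* were 3.42 and 1.28 when vehicle replicate 1 was left out, against 6.27 and 2.61 when replicate 2 was. *Siglech*, a marker of plasmacytoid cells, had a change of -0.74 (adjusted p = 0.103 by limma), and -0.41 under quantile normalization. The summed level, with *H2-Ab1* brightest, was 76.3 and 126 with vehicle, 213 and 165 with TP-16, 205 and 176 with anti-PD-1, and 261 and 257 with the combination. All 6 treated arrays were higher than both vehicle arrays.

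Basophil and mast cell markers rose in 6 of 8 genes with the combination, among them *Cpa3* (1.91), *Tpsb2* (1.65), *Mcpt4* (1.41) and *Cma1* (1.38, kept in 12 of 17 alternatives), and had a median change of 1.39. In total the markers, with *Mcpt4* brightest, came to 14.7 and 20.6 with vehicle, 18.3 and 22.7 with TP-16, 36.3 and 43.6 with anti-PD-1, and 45 and 53.6 with the combination. The anti-PD-1 and combination arrays lay above the others.

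Of the eosinophil markers, *Epx* and *Prg3* were well above background on 0 arrays, *Prg2* on 2 and *Ear6* on 3, and none of these was tested. *Ear1* rose with the combination (1.93, but 0.70 with normexp, and kept in 13 of 17 alternatives). *Siglecf* was called higher but was not well above background with vehicle. *Il5ra* and *Ccr3* had changes of -0.63 and 0.51, of which both took the other sign in some settings. The 5 tested genes had a median of 0.51. The sum was taken over all 9 listed genes, tested or not, and so holds probes not above background. With *Ear1* brightest, it was 0.366 and 0.591 with vehicle, 0.451 and 0.433 with TP-16, 0.658 and 0.618 with anti-PD-1, and 0.753 and 0.875 with the combination.

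Type 2 lymphocyte markers had 5 of 10 genes tested, with *Gata3* (1.30, kept in 10 of 17 alternatives) higher and *Areg* (-2.37) lower with the combination, and *Rora* at 0.93, and the median was 0.06. *Il5*, *Il9* and *Il17rb* were well above background on 0 arrays. Summed over all 10 genes, tested or not, with *Il1rl1* brightest, the list came to 27.7 and 24.3 with vehicle, 24.5 and 31.3 with TP-16, 32.5 and 36.7 with anti-PD-1, and 26.4 and 26.8 with the combination, and the groups other than anti-PD-1 overlapped.

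Neutrophil markers fell in 2 of 13 tested genes, *S100a9* (-1.20) and *S100a8* (-1.09), with the combination, kept in 10 and 9 of 17 alternatives, while the list's median change was 0.24. Both calls depended on the scaling, with -0.95 and -0.98 under quantile normalization, which is under a fold of 2. *Mmp8* had a change of 0.80, and *Camp* had an uncalled change of 1.30, which was 0.30 with normexp and 1.69 under quantile normalization, where it was past both thresholds. *Ltf* was not well above background with vehicle. *Ngp*, *Cxcr1* and *Ceacam10* were well above background on 0 arrays. The neutrophil sum over all 17 listed genes, tested or not, with *Csf3r* brightest, was 122 and 114 with vehicle, 98.4 and 95.4 with TP-16, 106 and 106 with anti-PD-1, and 79.3 and 62.2 with the combination.

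Fibroblast markers were called higher in 2 of 8 genes with the combination, *Col1a1* (1.95) and *Pdgfra* (1.22), with a median of 0.82. *Fap* was at 1.40 and *Thy1* at 0.95. Another *Pdgfra* probe gave -1.05 and was past both thresholds as lower (adjusted p = 0.0366 by limma), and a further one gave 0.04. The *Pdgfra* probes disagreed, so no direction is given for that gene. The printed *Fap* probe was uncalled, and a second one gave 1.70 and was past both thresholds (adjusted p = 0.0335 by limma). The fibroblast sum, with *Col1a2* brightest, was 286 and 253 with vehicle, 339 and 306 with TP-16, 357 and 328 with anti-PD-1, and 444 and 476 with the combination. Adipocyte markers rose in 2 of 10 tested genes, *Lpl* (3.84) and *Pparg* (1.17), which is also among the transcription factors above, and the median was 0.29. Other *Lpl* probes gave 3.57, 2.15, 0.51, -0.23 and -0.46. Uncalled were *Cfd* at 0.64, *Pck1* at 0.41, *Retn* at 0.33, *Cidec* at 0.25, *Adipoq* at 0.06, *Fabp4* at -0.25 and *Lep* at -0.30. *Plin1* was well above background on 1 of 2 vehicle and 1 of 2 combination arrays, so no direction is given. The adipocyte sum over all 11 listed genes, tested or not, with *Fabp4* brightest, was 34.2 and 37.3 with vehicle, 28.9 and 19.3 with TP-16, 34.6 and 29.6 with anti-PD-1, and 35.8 and 48.9 with the combination, and *Ucp1* was well above background on 0 arrays.

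Keratinocyte markers stood high on single arrays. The keratinocyte sum over all 8 genes on the arrays, tested or not, with *Trp63* the brightest on average, was 8.70 and 9.88 with vehicle, 7.95 and 35.1 with TP-16, 8.21 and 36.8 with anti-PD-1, and 8.18 and 8.21 with the combination. The 2 high arrays, TP-16 replicate 2 and anti-PD-1 replicate 2, were also the higher of their pair for *Chil3*, and *Krt14* read 3.80 and 4.22 on them. *Krt14*, *Krt5*, *Krt10* and *Trp63* had changes of -2.20, -1.61, -0.79 and 0.29 with the combination, none called, and a second *Trp63* probe gave -1.97. *Krt14* was well above background on 1 of 2 combination arrays, so its values are not read as sizes. *Krt14* and *Krt5* were -4.05 and -2.65 when vehicle replicate 1 was left out, against -0.35 and -0.58 when replicate 2 was, and *Ivl* was well above background on 0 arrays.

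Likeness was measured as Pearson's r over the 8 arrays, which share the group design, against 18418 other genes, and is a description. The genes most like *Retnla* were *Spats2l* (0.99), *Hcar2* (0.98), *Ifi202b* (0.98), *Ccdc64* (0.97) and the receptor chain *Il13ra1* (0.97). *Clec10a* was nearest to *Dpp4* (0.99), *Pygl* (0.99) and 6430548M08Rik (0.99). *Retnlg* was nearest to an unnamed transcript (0.97), *Scd4* (0.96) and *Gpd1* (0.96), *Chil3* to *Lims2* (0.94), *Gstm3* (0.94) and *Cnfn* (0.92), and *Il4ra* to *Erbb3* (0.98), *Zbtb42* (0.98) and *Litaf* (0.96). *Mrc1* was nearest to *Commd8* (0.96), *Serpinf1* (0.94) and 2610036A22Rik (0.94), *Cd163* to *Ccl6* (0.94), *Ccl9* (0.94) and *Prpf38b* (0.94), and the bright *Mgl2* probe, whose change depended on the scaling, to an unnamed transcript (1.00), *Nlrp1a* (1.00) and *Nup43* (1.00). Among the members themselves, r was above 0 in 17 of 28 pairs with a median of 0.23, and under quantile normalization in 18 of 28 with a median of 0.208. The lowest r, for *Mgl2* with *Clec10a*, was -0.945 and moved to -0.523 under that scaling, and the highest was 0.86 for *Retnla* with *Clec10a*. Without *Mgl2*, r was above 0 in 16 of 21 pairs with a median of 0.339. All of these counts and medians include the pairs of *Retnla*, whose values were selected on, so nothing is read from them. Among pairs without *Retnla*, the highest r was 0.855 for *Retnlg* with *Il4ra*.

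On the mm9 build, the *Retnla* probe lies at chr16:48844447-48844506 and the *Retnlg* probe at chr16:48874468-48874527, both on the plus strand. The main *Clec10a* probe lies at chr11:69984232-69984291 on the plus strand. The *Mgl2* probes lie on the same chromosome, at chr11:69950985-69951044 for the bright one and chr11:69950532-69950591 for the dim one.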

How the data were processed

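Total RNA of CT26 tumors, with 2 samples in each of 4 groups, was hybridised to 8 Agilent arrays in 1 colour. The authors deposited scanner output whose intensities were background-subtracted and detrended by Feature Extraction 10.7.1.1. A log2 table, deposited beside it and made in GeneSpring by a normalization of unstated kind, served as an alternative. Its column medians were 5.17, its sorted columns differed by at most 0.00115, and 0 of its columns could not be mapped to a sample.

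Control spots and 959 spots with an outlier mark were left out, spots of a probe were averaged, and 38 probes without a value on some array were dropped. Log2 intensity was scaled to the 75th percentile of each array (371 to 734 intensity units). Between 51.4% and 59.7% of probes were well above background, and the number of arrays limits the precision. Genes were represented by the probe of highest mean. Symbols came from RefSeq (GRCm38.p6) for 32971 probes (58.3%) and otherwise from the files.

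One fit in limma 3.58.1 (R 4.3.3, with the data.table package at version 1.17.8) held 4 group means, without a block, with Benjamini-Hochberg adjustment over 31912 probes. Calls needed a fold of 2 with an adjusted or unadjusted p of 0.05. The fit was also run on simulated data with independent noise and the same changes in all treated groups. Such data hold no effects of slide position, outlying arrays or background, so the run is no check on those. Promoters were aligned with Biopython 1.88, and figures used matplotlib 3.10.9 under Python 3.11.15. Named genes were every probe of the members, all ligands, receptors, kinases and STAT6 of the IL-4 pathway, and up to 4 genes per list, called genes first and then by size of change with the combination. Other list genes in the text were added after the values were seen. The members and lists were chosen with earlier results of these data known. An exact permutation test of 2 against 2 arrays cannot give a p below 0.333, so none was used. Of the genes chosen, 1 member, 1 transcription factor and 1 other list gene are not reported here and enter no count, median or figure.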

Additional observations from a re-analysis of the deposited data

How the results depend on the processing

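The alternatives were normexp background correction with an offset of 50, quantile normalization, the authors' log2 values, no filter on dim probes, probes well above background on all 8 arrays, the replicate number as a block, the compared groups alone, eBayes with trend and robust options, the t-test of the methods, and leaving out each array. Blocking on the slide was not run because there is 1 slide. A group left with 1 array is assumed to vary like the others.

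For the combination against vehicle, the count of members called at adjusted p was 0 with the compared groups alone and 0 with the methods' t-test, against 1 in the reported fit, and it ran from 0 to 3 when single arrays were left out. Over all probes the count was 0 in both of these fits and 0 without combination replicate 2. With no filter on dim probes *Chil4* entered the tests, and the combination counts were 2 at adjusted p and 2 at unadjusted p. The anti-PD-1 count at unadjusted p was 2, and the TP-16 count at unadjusted p was 1. Each of these counts held *Chil4* as lower. It was well above background only on vehicle replicate 2, so no change is read from its calls. Of all 56567 probes in that setting, 3729 were called for the combination at adjusted p and 11733 at unadjusted p. At unadjusted p the calls over all probes were 2980 for anti-PD-1 and 8206 for TP-16. The replicate block left 1 member called, and same-numbered arrays did not deviate together (r from -0.193 to 0.29 over 6 pairs), so the numbers pair nothing. At unadjusted p, the leave-one-out counts were 1 to 3 for the combination, 0 to 1 for TP-16, 0 to 1 for anti-PD-1, 0 to 1 against TP-16, 0 to 1 against anti-PD-1 and 0 to 1 for the departure from additivity. The anti-PD-1 count was 2 with quantile normalization and 2 with the authors' values, which added *Retnlg*. Against TP-16 the unadjusted count was 2 with the compared groups alone. The methods' t-test gave 0 for anti-PD-1 and 0 against TP-16 at unadjusted p, and it called 0 members at adjusted p in every comparison it was run on. Against anti-PD-1 the count was 1 with normexp, 1 with quantile normalization and 1 with the authors' values.

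The median of the 7 tested members without *Retnla* ran from -0.28 to 0.45 for TP-16, from 0.32 to 0.66 for anti-PD-1 and from 0.37 to 1.01 for the combination when single arrays were left out. With *Retnla* the members' median ran from -0.15 to 0.53 for TP-16, from 0.48 to 0.85 for anti-PD-1 and from 0.52 to 1.12 for the combination. The cause was not tested. Values that changed sign were uncalled in the reported fit. The bright *Mgl2* probe with TP-16 became 0.13 with quantile normalization and 0.13 with the authors' values. With the combination, *Plin1*, partly at background in both groups, became 0.11 and *Il5ra* 0.09 in both of those settings, and normexp gave -0.36 for the second *Cd163* probe (at most 1.35 in another setting), -0.23 for the second *Il4ra* probe, -0.15 for *Ccr3* and -0.29 for *Retn*.

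Changes uncalled in the reported fit also took both signs when single arrays were left out, and *Plin1* without vehicle replicate 1 and *Cfd* without vehicle replicate 2 were then called at adjusted p. With TP-16, *Chil3* ran from -0.28 to 0.97, *Il4ra* from -0.20 to 0.45 and *Retnlg* from -0.08 to 0.88. With anti-PD-1, *Cd163* ran from -0.04 to 0.95 and *Chil3* from -0.08 to 1.60. With the combination, *Cd163* ran from -0.12 to 0.86, *Mrc1* from -0.53 to 0.10, the second *Cd163* probe from -0.04 to 0.58, the second *Il4ra* probe from -1.36 to 1.64, *Cfd* from -0.15 to 1.44, *Plin1* from -1.37 to 0.14, *Chil1* from -1.79 to 0.40 and *Chit1* from -0.10 to 0.51. The *Plin1* and *Chil1* values rest partly on readings at background in both groups, so neither size nor direction is read from them. The departure from additivity ran from -0.33 to 0.45 for *Clec10a*.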
